A study of Mus musculus with 7 samples.

Results

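The genes of the proteasome were followed in the tibialis anterior (TA) muscle of mice with and without fast myosin-binding protein C. Members were the genes of the deposited table whose symbol begins with Psm, a letter from a to g and a digit, with 1 further symbol left out by the rule. This gave 47 of 12239 symbols. One of them, *Psmc3ip*, codes for a recombination cofactor and shares only the start of its name, so 46 proteasome genes were described. They were 16 core particle genes (7 alpha and 9 beta), 17 regulatory particle genes (6 ATPases and 11 non-ATPase subunits), 5 activators, 1 inhibitor and 7 assembly chaperones.

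The TA, which flexes the ankle and is built mainly of fast fibres, came from male mice aged 5 to 6 months. WT mice were of the FVBN strain, and C2-/- mice carried an FVBN *Mybpc2* allele whose exons 2 to 22 were exchanged for a Neo cassette between LoxP sites, a deletion present in every tissue of the animal. Polyadenylated RNA of 4 WT and 3 C2-/- muscles was sequenced, and the values are log2 CPM, the reads of a gene scaled to the library's size with TMM factors by the authors. *Mybpc2* (ENSMUST00000165208.3, GRCm38 chr7:44501699-44524656, minus strand, 28 exons) stood at 12.41 to 12.85 log2 CPM in WT and at -0.47 to 1.67 in C2-/-, so the target gene followed the labels in all 7 libraries.

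The proteasome is the large protease that degrades ubiquitin-tagged proteins. Its core particle stacks outer rings of alpha subunits, which gate the entrance, on inner rings of beta subunits, which hold the catalytic sites. The regulatory particle binds the tagged protein, removes the ubiquitin and unfolds the substrate with a ring of ATPases. In skeletal muscle it is a main route of protein turnover and is known for its part in muscle wasting.

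The libraries differed in ways that touch every result below. WT replicates 1 to 3 held 14929214 to 15464499 reads, WT replicate 4 held 4683853, and the C2-/- libraries held 2613277 to 4917936, so depth and genotype were nearly aligned. Change in expression also followed base composition: over 12176 genes, the log2 change and the transcript's GC content had a Spearman's rho of -0.68. Genes are not independent replicates, and the GC contents came from the annotation. Summed CPM of 10 fast fibre markers was 200736 to 234642 in WT and 106358 to 130913 in C2-/- (5 of 10 lower), and that of 5 fibroblast markers was 440 to 712 in WT and 1633 to 2030 in C2-/- (5 of 5 higher). With every library thinned to the smallest total, 26 proteasome genes passed the test described below, 11 higher and 15 lower, as many as without thinning, and 5108 of all genes passed in place of 5528. *Psmd5* lost its call and *Psma7* gained one under thinning. The part of these cell types in the results was not tested. In whole muscle, fewer cells of a type and less RNA per cell cannot be told apart.

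Alpha and beta genes of the core moved apart. Of the 7 alpha genes 5 rose in C2-/- and 0 fell, with a median log2 change of 0.86, and of the 9 beta genes 6 fell and 0 rose, with a median of -0.90. The test was limma over all 12239 genes, and a gene counted as risen or fallen at an adjusted p under 0.05 with more than a 1.5-fold difference. By this rule 20.2% of all genes rose and 25.0% fell, and the median over all genes was -0.14. Over the 46 proteasome genes 11 rose and 15 fell, with a median of -0.18, so the median of the whole set was close to that of all genes. With each library centred on its own median, which moved the median gene by 0.16, all 7 alpha genes rose and 5 beta genes fell. With quantile normalization, which also moved it by 0.16, 4 alpha genes rose (median 0.68) and 6 beta genes fell. With GC-corrected values, described further on, 1 alpha gene rose (*Psma7*, not among the 5; median of the 7 genes 0.21) and 1 beta gene fell (*Psmb7*; median of the 9 genes -0.08), so all 5 alpha calls and 5 of the 6 beta calls were lost.

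**Figure D1:**
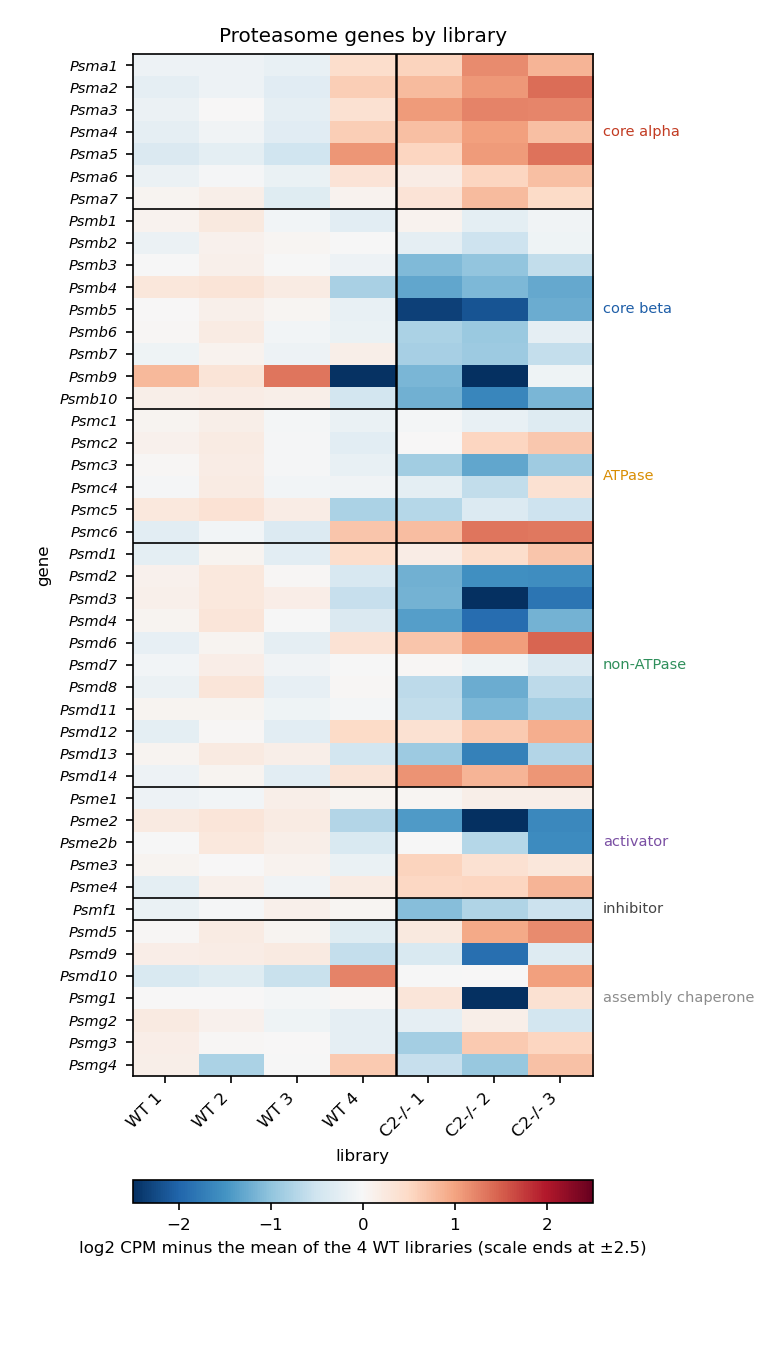
Each row is a proteasome gene and each column a library, and colour gives log2 CPM minus the mean of the 4 WT libraries (red higher, blue lower, scale ends at ±2.5). The alpha rows are red and most beta rows blue in the 3 C2-/- columns, and WT replicate 4 leans the same way in the alpha rows.

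Among the alpha genes, which form the outer ring and its gate, *Psma3* had the largest change in the deposited values. It stood at 6.56, 6.72, 6.48 and 7.09 log2 CPM in WT replicates 1 to 4 and at 7.77, 7.94 and 7.93 in C2-/- replicates 1 to 3, a log2 difference of 1.17 (SE 0.18, limma adjusted p = 0.00101). The highest WT library, replicate 4, lay below every C2-/- library. *Psma2* read 6.02, 6.12, 5.96 and 6.85 in WT against 7.03, 7.32 and 7.63 in C2-/- (log2 difference 1.09, SE 0.24, limma adjusted p = 0.00567). *Psma1* read 6.17, 6.16, 6.11 and 6.74 in WT against 6.85, 7.47 and 7.15 (0.86, SE 0.21, limma adjusted p = 0.00917), and *Psma4* rose by 0.84 (SE 0.22, limma adjusted p = 0.0123). In these 4 genes the groups did not overlap, and WT replicate 4 was the WT library nearest to C2-/-. Stretches of 50 bases shared with other annotated transcripts made up 31.5% of *Psma4*, 22.0% of *Psma3*, 3.53% of *Psma2* and 0% of *Psma1*.

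*Psma5* was less secure. Its WT values were 5.40, 5.51, 5.27 and 6.85, and its C2-/- values 6.30, 6.82 and 7.12, so WT replicate 4 lay above 2 of the 3 C2-/- libraries. The log2 difference was 0.99 (SE 0.37, limma adjusted p = 0.0485), it missed the threshold without any of WT replicates 1 to 3 or without C2-/- replicate 2 or 3 (0.80 to 0.95, limma adjusted p = 0.105 to 0.163), and against WT replicate 4 alone it was -0.11. Of its 50-base stretches 55.4% also occur in other annotated transcripts, which can move reads between copies. *Psma6* read 6.73, 6.85, 6.72 and 7.22 in WT and 7.07, 7.42 and 7.64 in C2-/- (0.50, SE 0.19, limma adjusted p = 0.0565), and its lowest C2-/- library was below WT replicate 4. *Psma7* read 6.34, 6.42, 5.97 and 6.36 in WT and 6.61, 7.06 and 6.75 in C2-/- (0.54, SE 0.18, limma adjusted p = 0.0355), with no overlap, but its fold change of 1.45 stayed under the limit.

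The beta genes include the proteolytic subunits. *Psmb5*, the chymotrypsin-like site, fell furthest in the deposited values: 5.42, 5.54, 5.46 and 5.22 log2 CPM in WT against 3.08, 3.26 and 4.16 in C2-/-, a log2 difference of -1.91 (SE 0.28, limma adjusted p = 0.000915), or 3.77-fold lower. Behind the C2-/- values were 24, 25 and 86 reads, and behind the WT values 163 to 698. All 4 WT libraries, the shallow replicate 4 included, lay above all 3 C2-/- libraries. *Psmb5* (GRCm38 chr14:54614119-54618022, minus strand) is also a gene with close copies, since 57.1% of its 50-base stretches recur in other transcripts.

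The other standard catalytic subunits fell less in the deposited values. After GC correction *Psmb7* stood at -0.82, *Psmb5* at -0.64 and *Psmb6* at 0.50, and of these only *Psmb7* passed. *Psmb7*, the trypsin-like site, read 7.81, 7.996, 7.79 and 8.07 in WT and 7.08, 6.998 and 7.31 in C2-/- (log2 difference -0.78, SE 0.15, limma adjusted p = 0.00304). *Psmb6*, the caspase-like site, read 6.78, 6.96, 6.69 and 6.57 in WT and 5.96, 5.83 and 6.52 in C2-/- (-0.64, SE 0.20, limma adjusted p = 0.0244), with its nearest WT and C2-/- libraries almost level. Its call was lost without any of WT replicates 1 to 3 or without C2-/- replicate 1 or 2 (-0.67 to -0.51, limma adjusted p = 0.0522 to 0.0845).

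The inducible subunits, which take the place of standard ones in the immunoproteasome, were scarce. *Psmb9*, the counterpart of *Psmb6*, had 50, 35, 73 and 1 reads in WT and 2, 0 and 8 in C2-/-. Its log2 values ran from -1.55 to 2.26 in WT and from -2.42 to 0.81 in C2-/- (log2 difference -1.52, SE 1.05, limma adjusted p = 0.253), so its groups overlapped. Leaving out single libraries moved the value from -2.35, without WT replicate 4, to -0.62, without C2-/- replicate 2, and in neither case was the test passed. As a share of the reads of *Psmb9* and *Psmb6* together, without correction for length, it made up 2.89%, 1.85%, 4.41% and 0.239% in WT and 1.09%, 0% and 1.77% in C2-/-. The exact binomial intervals (Clopper-Pearson, 95%, counting error only) were 0.133% to 3.89% and 0.769% to 3.47% in C2-/- replicates 1 and 3, and 0% to 2.41% for the 0 of 151 reads in replicate 2, where the limit of 3 reads that a count of 0 allows is 1.99%. *Psmb9* overlaps *Tap1* on the other strand, as *Psmb7* does *Nek6*, *Psmc3* does *Slc39a13* and *Psmd13* does *Sirt3*, and whether counting used strand is not given in the sources used here.

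*Psmb10*, the counterpart of *Psmb7*, read 3.44, 3.48, 3.45 and 2.84 log2 CPM in WT and 2.10, 1.67 and 2.15 in C2-/- (log2 difference -1.33, SE 0.35, limma adjusted p = 0.0125). Its share of the reads of *Psmb10* and *Psmb7* was 4.603%, 4.19%, 4.70% and 2.56% in WT and 2.96%, 2.29% and 2.67% in C2-/-. The share of WT replicate 4 lay within the C2-/- range, while the other WT shares lay above it. The call of *Psmb10* was lost when any of WT replicates 1 to 3 was left out (-1.28 to -1.27, limma adjusted p = 0.0519 to 0.0541). Of 8 interferon-responsive genes analysed beside it, 2 fell (*Irf1* and *Irf9*), the share of all genes that fell being 25.0%, and the summed CPM of the 8 was 51.9 to 98.5 in WT and 50.3 to 57.3 in C2-/-. The inducible counterpart of *Psmb5* was not analysed here.

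Of the non-catalytic beta genes, *Psmb4* read 6.71, 6.75, 6.64 and 5.61 in WT and 5.13, 5.30 and 5.14 in C2-/- (log2 difference -1.24, SE 0.28, limma adjusted p = 0.00552). WT replicate 4 stood closer to C2-/- than to the other WT libraries, and against it alone the difference was -0.42. *Psmb3* read 6.48, 6.62, 6.48 and 6.36 against 5.37, 5.51 and 5.87 (-0.90, SE 0.18, limma adjusted p = 0.00307), and 55.8% of its 50-base stretches recur in other transcripts. The smallest changes of the beta genes were those of *Psmb1* and *Psmb2*, whose groups overlapped. *Psmb1* read 6.69, 6.83, 6.53 and 6.33 in WT and 6.67, 6.35 and 6.51 in C2-/- (-0.08, SE 0.18), and *Psmb2* read 5.88, 6.12, 6.08 and 6.01 against 5.81, 5.50 and 5.91 (-0.28, SE 0.18).

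The division between the rings was summed by taking, in each library, the mean of the alpha genes minus the mean of the beta genes, each gene set against its WT mean. This was -0.29, -0.26, -0.45 and 0.995 in WT replicates 1 to 4 and 1.58, 2.30 and 1.58 in C2-/-. Without the scarce *Psmb9* and *Psmb10* it was -0.19, -0.24, -0.29 and 0.72 in WT and 1.53, 1.97 and 1.57 in C2-/-. All 3 C2-/- libraries lay above all 4 WT libraries in both, and WT replicate 4 lay between its own group and C2-/-.

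**Figure D2:**
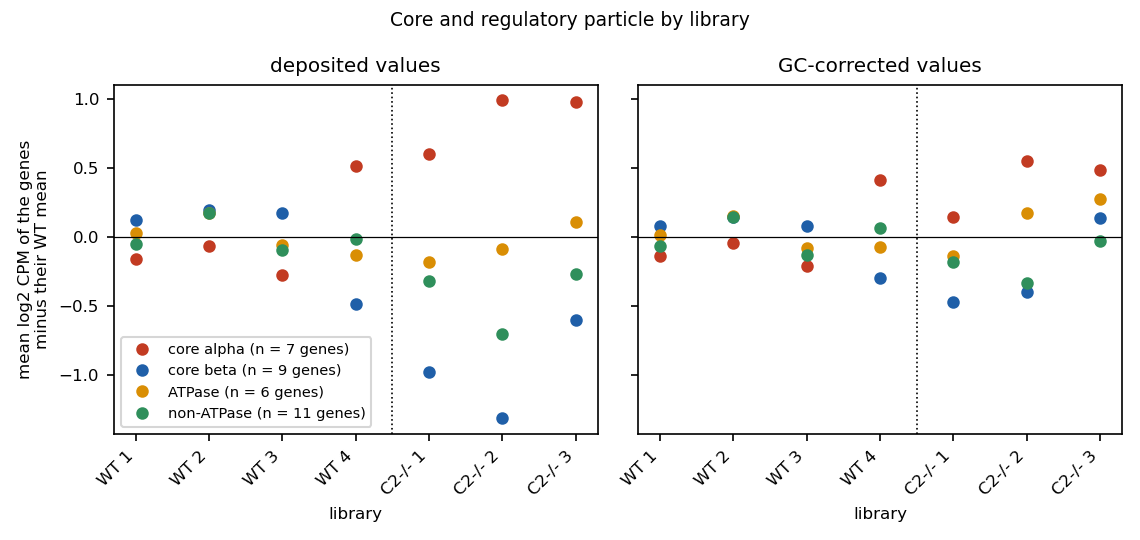
Mean log2 CPM of each subunit group minus its WT mean (vertical axis) in each of the 7 libraries (horizontal axis), from the deposited values (left) and after GC correction (right). On the left, alpha and beta points separate in the C2-/- libraries and in WT replicate 4, and on the right the separation in C2-/- is smaller.

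In the regulatory particle 4 of 17 genes rose (23.5%, against 20.2% of all genes) and 7 fell (41.2%, against 25.0%), with a median log2 change of -0.19. After GC correction 1 gene rose and 2 fell in the particle, with a median of -0.08, where 12.3% and 8.33% of all genes did. Its ATPase ring, which unfolds the substrate, had 1 of 6 genes higher and 1 lower (16.7% each), both shares below those of all genes, and a median of -0.17. *Psmc6* read 6.70, 6.89, 6.61 and 7.64 in WT and 7.73, 8.30 and 8.27 in C2-/- (log2 difference 1.14, SE 0.26, limma adjusted p = 0.00608). *Psmc3* read 7.66, 7.83, 7.62 and 7.45 in WT and 6.77, 6.35 and 6.76 in C2-/- (-1.02, SE 0.17, limma adjusted p = 0.00154). These 2 ATPases of the same ring moved in opposite directions in the deposited values, with no overlap between groups, but after GC correction they stood at -0.25 for *Psmc6* and 0.03 for *Psmc3*, and 0 of 6 ATPases passed. *Psmc4* and *Psmc1* had the smallest changes of the ring, with overlapping groups. *Psmc4* read 6.53, 6.76, 6.49 and 6.47 in WT and 6.31, 5.95 and 6.95 in C2-/- (-0.16, SE 0.23), and *Psmc1* read 7.29, 7.37, 7.19 and 7.07 against 7.18, 7.04 and 6.90 (-0.19, SE 0.15). *Psmc5* stood at -0.52 (SE 0.27) and *Psmc2* at 0.41 (SE 0.20).

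In the deposited values the 11 non-ATPase subunits held both the largest fall and several rises, with 3 higher (27.3%), 6 lower (54.5%) and a median of -0.86, where all genes gave 20.2%, 25.0% and -0.14. After GC correction 1 of the 11 rose and 2 fell, with a median of -0.23, where 12.3% and 8.33% of all genes did. *Psmd3*, a lid subunit (GRCm38 chr11:98682554-98695979, plus strand), had the largest change of all proteasome genes in the deposited values: 7.21, 7.34, 7.25 and 6.49 in WT against 5.90, 3.92 and 5.25 in C2-/-, a log2 difference of -2.05 (SE 0.41, limma adjusted p = 0.00315) or 4.14-fold lower. C2-/- replicate 2, with 40 reads, was the lowest, the groups did not overlap, and without that library the log2 difference was -1.50. After GC correction *Psmd3* stood at -0.56 (SE 0.27, limma adjusted p = 0.17) and did not pass. *Psmd4*, a receptor for ubiquitin chains, read 7.33, 7.56, 7.25 and 6.91 in WT and 5.88, 5.36 and 6.08 in C2-/- (-1.49, SE 0.22, limma adjusted p = 0.000908).

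*Psmd2*, the scaffold of the base that receives ubiquitin shuttle proteins, read 8.44, 8.61, 8.36 and 7.95 in WT and 7.13, 6.81 and 6.78 in C2-/- (-1.43, SE 0.19, limma adjusted p = 0.000553). *Psmd13*, a lid subunit, read 5.97, 6.13, 6.04 and 5.44 against 4.98, 4.21 and 5.17 (-1.11, SE 0.27, limma adjusted p = 0.00837). The lid subunits *Psmd8* and *Psmd11* each fell by 0.86 on the log2 scale, with limma adjusted p = 0.00694 and 0.00324. After GC correction *Psmd8* no longer passed (-0.23, limma adjusted p = 0.414), while *Psmd11* did (-1.02, limma adjusted p = 0.00304).

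The rises in this group were *Psmd6*, *Psmd14* and *Psmd12*. *Psmd6*, a lid subunit, read 6.96, 7.23, 6.94 and 7.52 in WT and 7.85, 8.21 and 8.62 in C2-/- (1.07, SE 0.22, limma adjusted p = 0.00361). *Psmd14*, the deubiquitinase that strips the ubiquitin chain, read 6.04, 6.24, 5.89 and 6.50 in WT and 7.29, 7.01 and 7.27 in C2-/- (1.02, SE 0.18, limma adjusted p = 0.00213). After GC correction *Psmd14* stood at 0.29 (SE 0.16, limma adjusted p = 0.215) and no longer passed. Its partner in the lid, *Psmd7*, overlapped between groups, at 7.32, 7.54, 7.29 and 7.37 in WT and 7.41, 7.27 and 7.03 in C2-/- (-0.14, SE 0.16). So did *Psmd1*, a scaffold of the base, at 7.91, 8.22, 7.90 and 8.59 in WT and 8.35, 8.6 and 8.85 in C2-/- (0.45, SE 0.21, limma adjusted p = 0.098). *Psmd12* rose by 0.65 (SE 0.21, limma adjusted p = 0.0302), but WT replicate 4 (7.86) lay inside its C2-/- range of 7.77 to 8.29, and the call was lost without any of WT replicates 1 to 3 or without C2-/- replicate 2 or 3 (0.52 to 0.66, limma adjusted p = 0.0637 to 0.106).

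**Figure D3:**
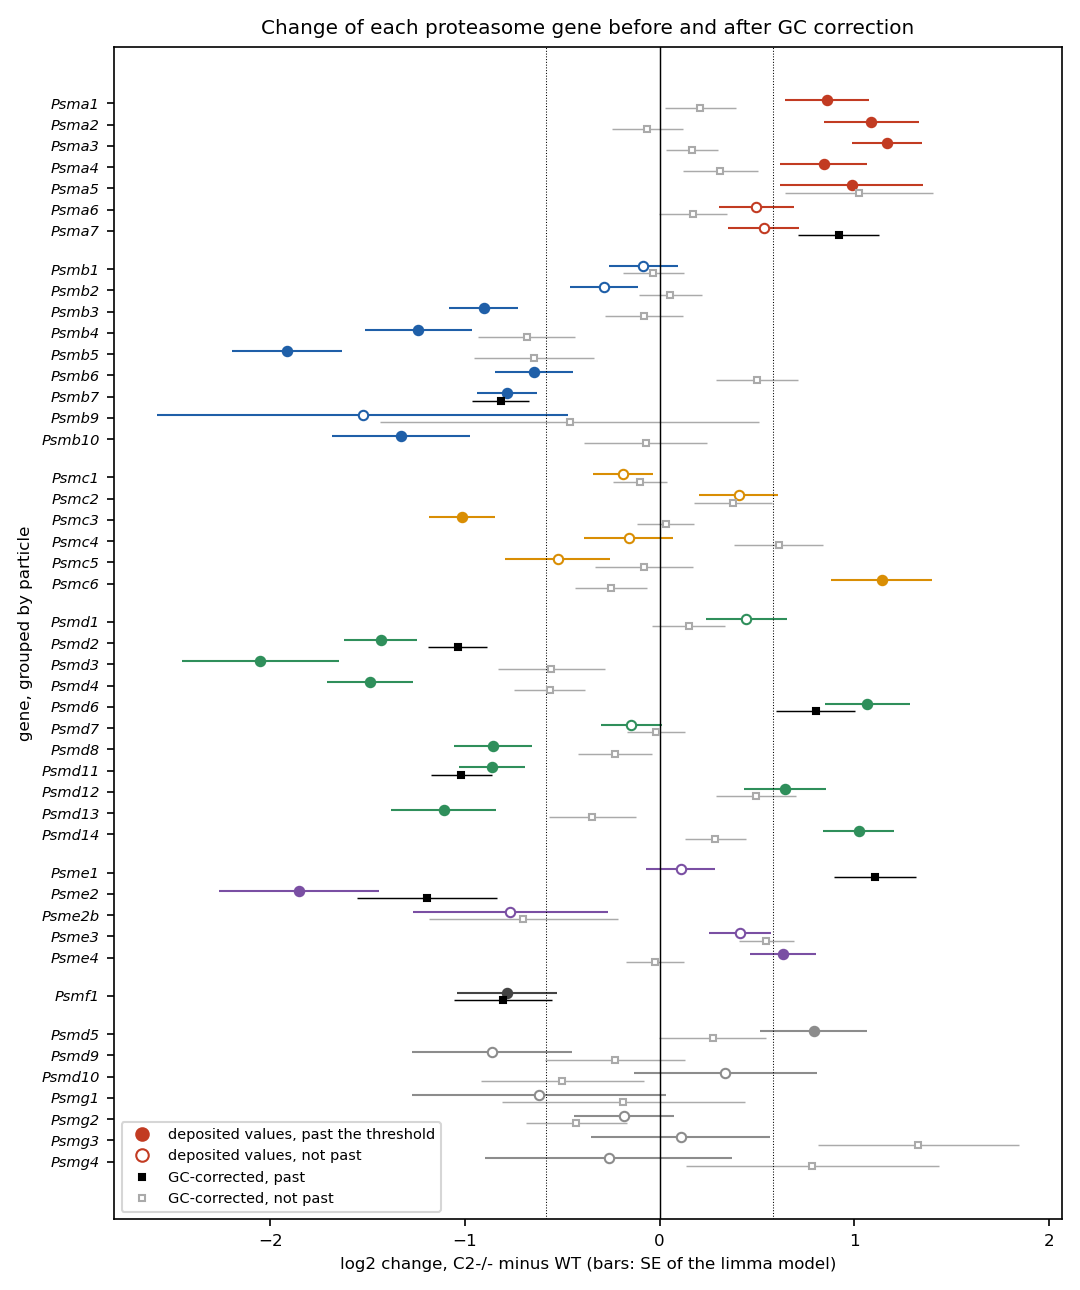
Log2 change of each proteasome gene, C2-/- minus WT, with the SE of the limma model. Coloured circles are the deposited values (filled when past the threshold), squares the GC-corrected values (black when past), and dotted lines the 1.5-fold limits. In circles 11 genes are past on the right and 15 on the left, in squares 3 and 5.

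The activators, which open the core in place of the regulatory particle, did not move together. After GC correction *Psme1* rose (1.11, limma adjusted p = 0.00673) and *Psme4* no longer passed (-0.02, limma adjusted p = 0.924). The readings that follow are deposited values. *Psme1* and *Psme2* code for the subunits of 1 mixed ring that interferon induces. *Psme1* read 5.16, 5.23, 5.43 and 5.35 in WT and 5.34, 5.43 and 5.43 in C2-/- (log2 difference 0.11, SE 0.18, limma adjusted p = 0.629), while its ring partner *Psme2* read 4.05, 4.13, 4.02 and 3.09 in WT and 2.42, 1.28 and 2.22 in C2-/- (-1.85, SE 0.41, limma adjusted p = 0.00545). The C2-/- values of *Psme2* rested on 15, 6 and 22 reads. *Psme2b*, a single-exon copy of *Psme2*, shares 69.3% of its 50-base stretches with other transcripts and *Psme2* 59.3%, so reads may have been divided between them, and *Psme2b* itself read 1.98, 2.26, 2.14 and 1.62 in WT and 1.98, 1.28 and 0.43 in C2-/- (-0.77, SE 0.50, limma adjusted p = 0.228). Without C2-/- replicate 1 its difference was -1.14 and without replicate 3 -0.36.

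*Psme3*, the nuclear activator, read 6.34, 6.29, 6.36 and 6.11 in WT and 6.84, 6.66 and 6.57 in C2-/- (0.41, SE 0.16, limma adjusted p = 0.0533), with every C2-/- library above every WT library although the test was not passed. *Psme4*, the large single-chain activator, read 8.46, 8.82, 8.62 and 8.90 in WT and 9.21, 9.24 and 9.56 in C2-/- (0.64, SE 0.17, limma adjusted p = 0.0123). The call of *Psme4* was lost without WT replicate 1 (0.56) or without C2-/- replicate 3 (0.52), which both fell under the 1.5-fold limit. *Psmf1*, an inhibitor of the core in the test tube, read 4.04, 4.19, 4.34 and 4.27 in WT and 3.13, 3.47 and 3.67 in C2-/- (-0.78, SE 0.26, limma adjusted p = 0.0299). Its call was lost without C2-/- replicate 1 or any of WT replicates 1 to 3 (-0.84 to -0.64, limma adjusted p = 0.0673 to 0.1).

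Of the 7 assembly chaperones only *Psmd5*, which holds part of the base during its assembly, passed the test: 4.19, 4.37, 4.22 and 3.85 in WT against 4.40, 5.11 and 5.34 in C2-/- (0.79, SE 0.27, limma adjusted p = 0.0375), a call lost when any library but C2-/- replicate 1 was left out (0.60 to 0.86, limma adjusted p = 0.053 to 0.122). *Psmg3* and *Psmg2* had the smallest changes and overlapped between groups. *Psmg3* read 2.39, 2.26, 2.24 and 1.99 in WT and 1.37, 2.87 and 2.75 in C2-/- (0.11, SE 0.46), and *Psmg2* read 4.45, 4.33, 4.12 and 4.004 against 4.0, 4.38 and 3.76 (-0.18, SE 0.26). *Psmg1* was at 2.89 to 2.97 in all 4 WT libraries and at 3.24, 0.39 and 3.33 in C2-/- (-0.62, SE 0.65), where the value of replicate 2 came from 3 reads. *Psmd9* (-0.86, SE 0.41, limma adjusted p = 0.107; -0.35 without C2-/- replicate 2), *Psmd10* (0.34, SE 0.47) and *Psmg4* (-0.26, SE 0.64) also overlapped between groups.

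Among all 46 genes, every C2-/- library was above every WT library in 11 and below in 15, against 22.6% and 26.7% of all genes. In 19 of the 46 (41.3%), against 38.1% of all genes, WT replicate 4 was closer to the average C2-/- value than to its own group's other 3 libraries. Against WT replicate 4 alone 40 of 46 genes (87.0%) kept the sign of their change, against 85.8% of all genes, with a median of 0.42 for the alpha and -0.47 for the beta genes.

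Within the set, the changes ran with base composition. Median GC was 44.98% for the alpha genes, 53.8% for the beta genes and 50.2% for all genes with a value. Spearman's rho of the log2 change with GC was -0.77 over the 46 proteasome genes, -0.87 over the 16 core genes and -0.83 over the 17 regulatory particle genes, as a description across genes that share the same 7 libraries. *Psmc6*, with the lowest GC of the set (37.0%), had a high log2 change, and *Psmd3*, with the highest (58.3%), the lowest.

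**Figure D4:**
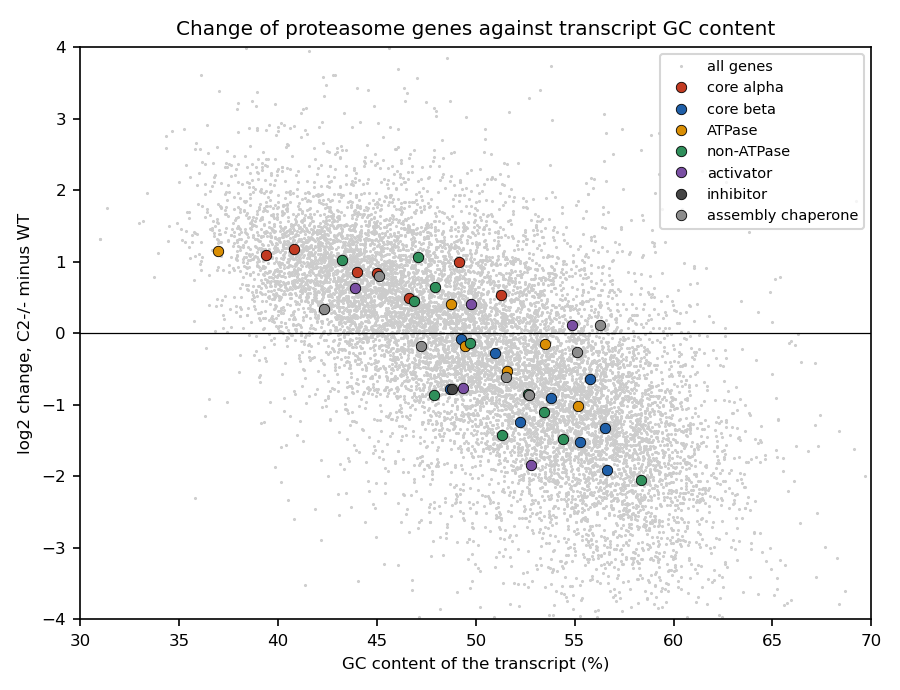
Log2 change, C2-/- minus WT (vertical axis), against GC content of the transcript in percent (horizontal axis), with all genes in grey and proteasome genes coloured by group. The 66 genes outside the axes are not drawn. Most alpha genes lie at the upper left and most beta genes at the lower right of the slope that all genes form, with *Psma5* and *Psma7* near the middle of the GC range.

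After a spline on GC content was removed from each library, most of the division within the core was no longer past the threshold. The median was 0.21 for the alpha and -0.08 for the beta genes, and 3 proteasome genes rose and 5 fell, where 12.3% and 8.33% of all genes did. The genes that rose were *Psma7* (0.92, limma adjusted p = 0.0131), *Psmd6* (0.80, limma adjusted p = 0.021) and *Psme1* (1.11, limma adjusted p = 0.00673). Those that fell were *Psmb7* (-0.82, limma adjusted p = 0.00525), *Psmd2* (-1.04, limma adjusted p = 0.00269), *Psmd11* (-1.02, limma adjusted p = 0.00304), *Psme2* (-1.20, limma adjusted p = 0.04) and *Psmf1* (-0.81, limma adjusted p = 0.0459). *Psmd6*, *Psmb7*, *Psmd2*, *Psmd11*, *Psme2* and *Psmf1* were thus past the threshold, in the same direction, in both forms of the values. *Psmf1* was the least secure of them: it no longer passed after GC correction without WT replicate 4 (-0.78, limma adjusted p = 0.0508), nor with median centring (-0.62), quantile normalization (-0.60) or the replicate number as a block (-0.77, limma adjusted p = 0.0625). Stretches of 50 bases shared with other transcripts made up 59.3% of *Psme2*, 28.1% of *Psmb7*, 26.4% of *Psmd2* and 18.9% of *Psmd11*. For *Psmd6* and *Psmf1* the share was 0%.

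The GC-corrected alpha minus beta difference was -0.22, -0.19, -0.29 and 0.70 in WT and 0.62, 0.95 and 0.35 in C2-/-, so WT replicate 4 lay inside the C2-/- range. Without *Psmb9* and *Psmb10* it was -0.13, -0.18, -0.15 and 0.45 in WT and 0.66, 0.77 and 0.47 in C2-/-, where WT replicate 4 lay just below the lowest C2-/- library. *Psmb5* stood at -0.64 (SE 0.31) and *Psmd3* at -0.56 (SE 0.27) after correction, *Psma3* at 0.17 (SE 0.13), *Psmc6* at -0.25 (SE 0.19) and *Psmc3* at 0.03 (SE 0.15). *Psma5* kept a large change without passing (1.02, SE 0.38, limma adjusted p = 0.0807), as did *Psmb4* (-0.68, SE 0.25, limma adjusted p = 0.0756). Both passed when WT replicate 4 was also left out, an alternative chosen after seeing the data. The correction removes whatever follows GC, so a change in expression that tracks GC is removed with it.

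Levels between genes were compared per transcript length, as mean CPM per kilobase. The length was that of the longest annotated protein-coding transcript, and the order depends on that choice. In WT the most abundant proteasome genes were *Psmb7* (209), *Psmb6* (135) and *Psmb3* (117), followed by *Psma6* (114), and the least abundant were *Psmb9* (1.96), *Psmg4* (3.35) and *Psmd5* (4.09). The lowest and highest WT libraries were 190 and 231 for *Psmb7*, above every WT value of *Psmb6* (119 to 156). *Psmb6*, *Psmb3* and *Psma6* overlapped in their WT ranges. In C2-/- the order began with *Psmd6* (221), *Psma4* (183) and *Psma6* (161), and *Psmb7* (121) ranked 7.

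Promoter sequences were searched for a pair of motifs known from proteasome genes: the core of the antioxidant response element, TGACNNNGC, which the factors coded by *Nfe2l1* and *Nfe2l2* bind, and the box CCAAT. RefSeq promoters (GRCm38.p6, 250 bases before to 50 after the start) were given for 39 of the 46 genes, without *Psmb1*, *Psmb2*, *Psmb7*, *Psmc3*, *Psmd3*, *Psmd7* and *Psmg2*. On either strand TGACNNNGC was found in 6 of 39 (15.4%), against 17.2% of the 9329 genes of the table with a promoter given (12.4% of all 32851 promoters), and CCAAT in 13 of 39 (33.3%), against 42.5% of those genes (37.4% of all promoters). Both shares lay below those of the genes of the table. The antioxidant motif was in 0 of 7 alpha and 2 of 6 beta promoters, and in 3 of 11 genes that rose and 2 of 12 that fell. CCAAT was in 5 of 7 alpha and 2 of 6 beta promoters. By call it was in 4 of 11 genes that rose, 2 of 12 that fell and 7 of 16 that did not pass. The motif letters can occur by composition alone, and a match is a description of the sequence.

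Of the 3 genes with the antioxidant motif that rose, only *Psmc6* is shown. *Psmd12*, another of them, holds a match from -247 to -239. The windows around the motif are shown for the beta genes that fell and for *Psmc6*, with the motif (or its reverse complement) in capitals and 10 flanking bases, cut at the start site. They are written 5′ to 3′ on the strand of the gene, and lie at chr14:54618024-54618052 (minus strand, *Psmb5*), chr11:70525338-70525356 (plus strand, *Psmb6*) and chr14:45329587-45329615 (plus strand, *Psmc6*).
Psmb5: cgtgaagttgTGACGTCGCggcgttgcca
Psmb6: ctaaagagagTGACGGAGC
Psmc6: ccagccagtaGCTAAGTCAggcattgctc

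The CCAAT windows are shown for the alpha genes that rose and hold a match, so that promoters of the same ring can be compared. They lie at chr7:114276200-114276224 (minus strand, *Psma1*, the nearer of 2 matches), chr13:14613178-14613202 (plus strand, *Psma2*) and chr12:70974474-70974498 (plus strand, *Psma3*). The match begins at -98, -54 and -139 from the start, in that order.
Psma1: gagcttcctgCCAATcccacgttct
Psma2: tgactctcctCCAATcagagcaaag
Psma3: cttagctcttCCAATaccagtttca

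Of 27 listed genes that act with the proteasome, 26 were analysed: 7 rose and 7 fell (26.9% each, against 20.2% and 25.0% of all genes), with a median log2 change of 0.23. Those that rose were the small subunit *Shfm1*, the core assembly factor *Pomp*, the deubiquitinase *Uchl5*, the proteasome-bound thioredoxin *Txnl1*, *Akirin2*, which brings proteasomes into the nucleus, the shuttle *Ubqln2* and *Zfand5*. *Shfm1* read 5.34 to 6.70 log2 CPM in WT and 7.66 to 8.76 in C2-/- (2.32, SE 0.35, limma adjusted p = 0.00103). *Uchl5* read 4.26 to 6.06 against 7.02 to 7.37 (2.28, SE 0.37, limma adjusted p = 0.00142).

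Those that fell were the transcription factor *Nfe2l1*, its activating protease *Ddi2*, the shuttle *Ubqln4*, the segregase cofactor *Nploc4*, *Zfand2a* and *Zfand2b*, and the ubiquitin gene *Ubb*. *Nfe2l1* read 9.33 to 10.03 in WT and 7.91 to 8.77 in C2-/- (-1.40, SE 0.24, limma adjusted p = 0.00157), and *Ubb* read 6.94 to 7.66 against 5.34 to 6.03 (-1.72, SE 0.22, limma adjusted p = 0.000538). *Nfe2l2*, the other factor of the antioxidant motif, stood at 0.53 (SE 0.33, limma adjusted p = 0.206). After GC correction 6 of the 26 rose (*Adrm1*, *Shfm1*, *Pomp*, *Uchl5*, *Txnl1* and *Ubqln2*) and 3 fell (*Usp14*, *Ddi2* and *Ubb*), where 12.3% and 8.33% of all genes did. The correction turned the sign of 7 of the 26. They included *Adrm1*, from -0.55 to 1.17, and *Usp14*, from 0.21 to -0.96, which had not passed before it, and *Ubqln4*, from -0.95 to 0.18, and *Zfand2b*, from -1.57 to 0.06, which had. The others were *AI314180*, *Ngly1* and *Ublcp1*, none of which passed with or without the correction.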

How the data were processed

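TA muscle mRNA was sequenced as DNA nanoballs in 4 WT and 3 C2-/- libraries, grouped by their titles. The authors aligned reads to GRCm38.p6 with HISAT, counted genes with featureCounts 1.5.2, scaled with edgeR's TMM and deposited log2 CPM values for 12239 genes. Whole reads were recovered from the deposited log2 values, with 0.5 reads added, for 100% of values within 0.01 reads. Totals were 2613277 to 15464499 reads, and 3 reads equalled 0.195 to 1.12 CPM (counting error only). The authors' table of fold changes and p-values was not used.

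Values were tested with limma 3.58.1 (R 4.3.3; lmFit, eBayes with trend), two-sided, genotype as the only term, with Benjamini-Hochberg adjustment over all genes, in place of the authors' limma/voom because the values are on the log2 scale. A gene passed with adjusted p under 0.05 and fold above 1.5. The fit was run on simulated data that held neither a GC trend nor a shifted WT library. That run could not judge calls that such features affect. The titles number the samples of each group, and the column headers of the deposited values add a tag to each. Whether a tag marks an animal was not established, so p-values measure the spread between these samples, which may in part be technical. The series' design text states equal groups of 4, and the methods give a wider age range than the titles used here.

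GC content and length came from GENCODE transcripts of GRCm38 (12176 genes, 99.5%, of which 358 through an older symbol). The longest transcript of each gene was taken, a protein-coding transcript where available. GC was removed per library by a natural spline with 5 degrees of freedom. Every member was named. Values in every library were given for catalytic subunits, activators, and up to 4 largest and the 2 smallest changes per group. Of the pathway list 3 further genes are not reported here and were left out of its counts. Pathway genes were named where they passed, and *Nfe2l2*, *Adrm1*, *Usp14*, *AI314180*, *Ngly1* and *Ublcp1* were added with their values in view. The members and lists were chosen with earlier results of these data known. Markers also covered macrophage and leukocyte (summed CPM 47.8 to 63.0 in WT, 33.5 to 61.2 in C2-/-), endothelial (266 to 423, 241 to 312), adipocyte (0.325 to 8.65, 3.10 to 11.6) and Schwann cells (31.6 to 70.0, 32.3 to 55.4). Alternatives were other scalings, filters, models and thresholds, GC correction, thinning, a replicate block and leaving out each library.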

Additional observations from a re-analysis of the deposited data

Results flagged for a closer look

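In WT, 9 of the 47 genes examined (the 46 proteasome genes and *Mybpc2*) had 1 library far from the other 3, and in all 9 it was WT replicate 4. About 1 in 20 groups is marked this way by chance, or 2.35 of 47. Over all 12239 genes the share was 17.3% (16.1% with WT replicate 4 as the library apart), against 19.1% of the genes examined here. Its values were lower than the other WT libraries for *Psmb10* (2.84 log2 CPM, others 3.44 to 3.48), *Psme2* (3.09, others 4.02 to 4.13), *Psmb4* (5.61, others 6.64 to 6.75), *Psmd3* (6.49, others 7.21 to 7.34), *Psmc5* (5.87, others 6.83 to 7.01) and *Psmd9* (3.73, others 4.49 to 4.54). They were higher for *Psma5* (6.85, others 5.27 to 5.51), *Psma1* (6.74, others 6.11 to 6.17) and *Psmd10* (4.74, others 2.94 to 3.20). In all 9 genes WT replicate 4 lay on the side of the other WT libraries on which the C2-/- mean lay. The matching share over all genes is not given here, so this count describes the 9 genes only.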

How the results depend on the processing

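Of the 46 proteasome genes 26 passed, of all genes 5528, of the core genes 11 and of the regulatory particle genes 11. After GC correction these counts were 8, 2508, 2 and 3, and after GC correction without WT replicate 4, an alternative chosen after seeing the data, 11, 3128, 4 and 5. With adjusted p under 0.01, 3216 of all genes and 7 core genes passed. Leaving out each library in turn gave 19 to 28 proteasome genes, 8 to 12 core genes, 10 to 13 regulatory particle genes and 4095 to 6136 of all genes. The cause of these moves was not tested. Median centring gave 14 proteasome genes higher and 13 lower (7 and 5 in the core, where the deposited values gave 5 and 6), and quantile normalization 8 and 14. Over all genes the deposited values gave 2473 higher and 3055 lower, median centring 3040 and 2594, and quantile normalization 2883 and 2760. voom on the recovered reads, and 5 reads added, gave 26 proteasome genes each.

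Some log2 changes turned their sign, and the cause was not tested. After GC correction (in brackets also without WT replicate 4) they were *Psmb6* 0.50 (0.53), *Psme4* -0.0242 (-0.0145), *Psmb2* 0.0562 (0.0894), *Psmc6* -0.25 (-0.12), *Psmc3* 0.0307 (0.0518), *Psmc4* 0.61 (0.65), *Psmd10* -0.50 (-0.16) and *Psmg4* 0.78 (1.09). *Psma2* was -0.063 with all libraries, and *Psmd7* 0.00183 without WT replicate 4. Median centring turned *Psmb1* (0.0779), *Psmc4* (0.00271) and *Psmd7* (0.0166), quantile normalization turned *Psmg4* (0.65), and library quality weights turned *Psmg3* (-0.20). Leaving out single libraries gave a range of -0.43 to 0.0671 for *Psmc4*, -0.16 to 0.59 for *Psmg3*, -1.12 to 0.35 for *Psmg1*, -0.76 to 0.0793 for *Psmg4* and -0.00101 to 0.75 for *Psmd10*, with the turned sign without C2-/- replicate 2 or, for *Psmd10* and also *Psmg3*, replicate 3. *Psma5* against WT replicate 4 alone was -0.11. Of the remaining values for single genes, 825 kept their direction and their side of the threshold, 80 no longer passed, 22 newly passed, and 24 moved by more than the replicate spread against WT replicate 4 alone.

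The replicate numbers are shared between groups without a stated pairing, and the deviations of same-numbered libraries correlated at 0.0532, -0.0643 and -0.0528. With the number as a replicate block 29 proteasome, 13 core and 13 regulatory particle genes and 5901 of all genes passed. WT replicate 4 has no partner and adds nothing to these differences. *Psmd5* (0.69, limma adjusted p = 0.0604) and *Psmf1* (-0.77, limma adjusted p = 0.0625) lost their calls, *Psmb9*, *Psma6*, *Psmd1*, *Psmc5* and *Psmd9* gained one, as *Psmd9* did with library quality weights (-0.81, limma adjusted p = 0.043), and not every sample correlated best with its own number. Depth was lowest for genes such as *Psmb9* and *Psmg4*, with 0 to 14 reads in the C2-/- libraries.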
